A study of Mus musculus with 6 samples.

Results

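The genes described here are 42 listed genes of G2 and mitosis, grouped by the step of division they serve: entry and its regulators, the spindle checkpoint, the centromere and the passenger complex, condensin and chromosome structure, spindle kinesins, spindle and centrosome factors, and cytokinesis. They were taken by symbol from the probe annotation. Where several probe sets named only that gene, the probe set with the highest mean signal over the 6 arrays stood for it. Of the 42 genes, 37 had such a probe set, among 8251 genes with one in all. Bub1b, Cdc25b, Tpx2, Hmmr and Ncapd2 were not analysed here. Another 4, Cenpe, Ncaph, Stil and Spag5, had a mean signal under the limit of 75.2 used for testing, which left 33 tested genes.

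The arrays measured total RNA of C2AS12, mouse myoblasts of the C2 lineage, infected with an adenovirus that encodes p300, a coactivator that acetylates histones. Cells received virus for wild-type p300 alone, virus for wild-type p300 plus doxycycline, or virus for mutant p300. Each of these 3 treatments was measured on 1 array at 0 h, before the medium change, and on 1 array 24 h after the change to a low-serum medium for differentiation. According to the submitters, cells with wild-type p300 alone survived, and cells of both other treatments died by apoptosis. Every array, controls included, was of virus-infected cells, and the labels state neither the p300 mutation nor what doxycycline does to the construct.

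Division genes are switched on late in the cell cycle. Cyclin-dependent kinase 1 and the Polo-like and Aurora kinases start mitosis, condensin and topoisomerase II compact and untangle the chromosomes, kinesins build the spindle, the checkpoint holds back chromosome separation until the kinetochores are attached, and a ring of actin and anillin then splits the cell. Myoblasts leave the cell cycle before they fuse into myotubes, and transcripts of these genes are commonly low in cells that have left it. Promoters of many of them hold CCAAT boxes, bound by the factor NF-Y, and a cell cycle homology region, bound by the DREAM and FOXM1 complexes.

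The arrays had been scaled to a like level, with trimmed means of 199.34 to 199.96 and median signals of 68.7 to 78.05, and their number limits the precision. Of 10 myoblast and muscle markers, all measured, Mef2c lay under the floor of 16.4 (the 25th percentile of all signals, to which lower values were set) on every array, while Myod1 lay between 419.1 and 813.0 and Des, desmin, between 264.6 and 496.3. The summed signal of these markers was 2215 to 2733 at 0 h and 3970 to 6187 at 24 h. Ptprc, Lyz2 and Cd3e of leukocytes, Cdh5 and Tie1 of endothelium, Epcam of epithelium and Thy1 of fibroblasts lay under the floor on every array. Other genes of these lists were measured, with Cd68 at 103.9 to 173.0, Csf1r at 35.2 to 76.9, Pecam1 at 36.9 to 70.8 and Cdh1 at 142.7 to 230.8. All genes of the fibroblast list but Thy1 lay above the floor on every array. Col1a2 lay at 3505.0 to 5416.6, Col3a1 at 1964.2 to 3623.7, Dcn at 438.8 to 2475.0, Pdgfra at 154.4 to 287.5 and Col1a1 at 113.5 to 184.7. The summed signals of the matrix and fibroblast list were 6206 to 8090 at 0 h and 11180 to 11820 at 24 h. Those of the other lists were 199.3 to 334.3 at 0 h and 197.3 to 328.2 at 24 h for adipocyte genes (3 of 5 measured), 210.3 to 270.5 and 172.1 to 206.1 for macrophage and leukocyte genes (5 of 6), 62.9 to 113.6 and 76.1 to 116.4 for endothelial genes (4 of 4) and 186.7 to 276.2 and 226.2 to 246.4 for epithelial genes (4 of 4).

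The first comparison asked what the medium change did to division genes in each treatment. All 33 tested genes fell over 24 h by limma at an adjusted p under 0.05, in a test in which 9.00% of the 6212 probe sets tested fell. Each of the 33 had all 3 signals at 0 h above all 3 signals at 24 h, an order seen in 15.5% of probe sets tested. In all 3 treatments 29 of the 33 fell at least 2-fold and 23 at least 4-fold, sizes reached by 1.59% and 0.596% of probe sets tested. The median log2 change of the 33 genes was -2.78, and that of all probe sets tested was 0.01. Of the 33, 20 had a 24 h mean under the limit on mean signal and so passed it through their 0 h arrays, and 0 had a 0 h mean under it, so these counts describe the tested genes and not the whole list. When all 12422 probe sets were tested with no limit on signal, none was called, and the adjusted p of the 33 lay between 0.0826 and 0.166, while 35 of the 37 measured genes were lower at an unadjusted p under 0.05, as were 8.46% of all 12422. In bulk RNA, fewer dividing cells and less of these transcripts per cell cannot be told apart.

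**Figure D1:**
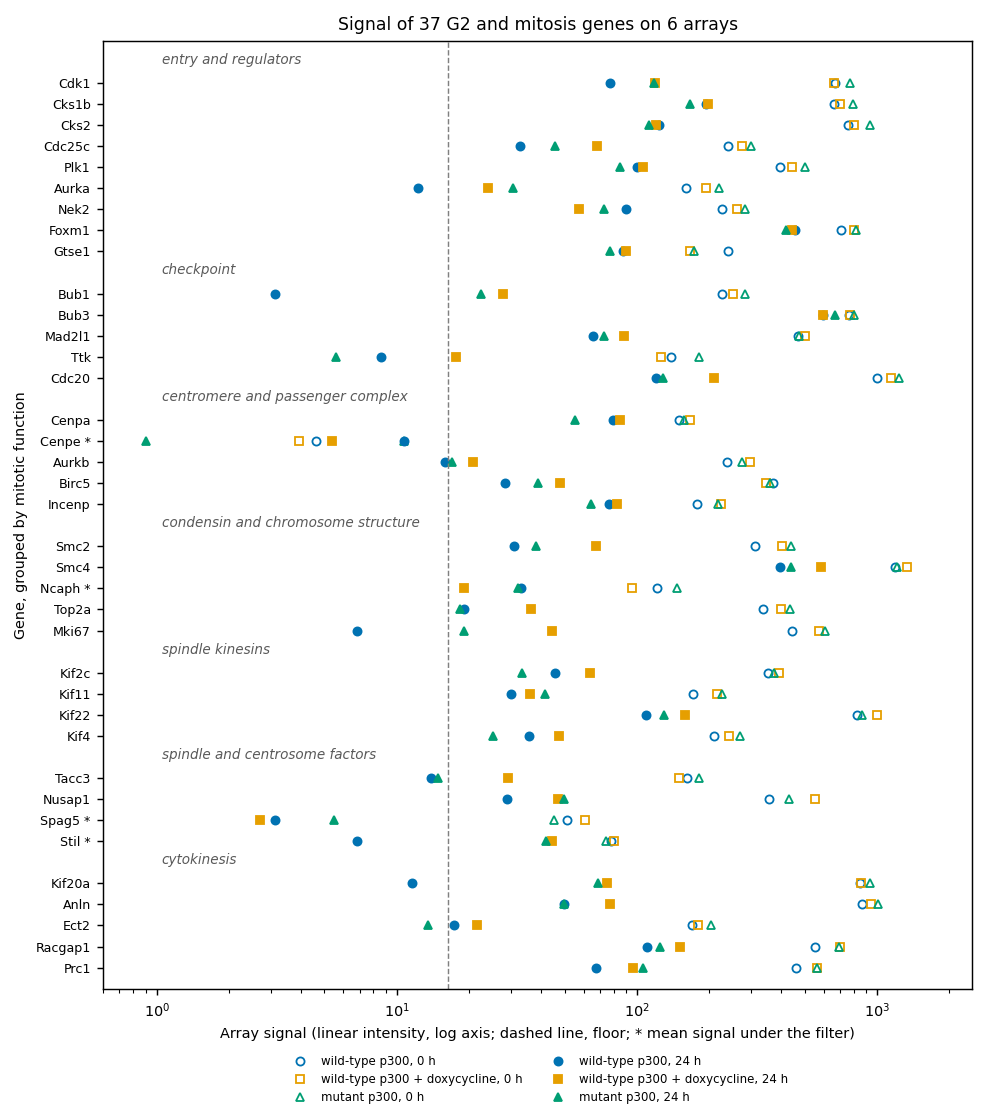
Deposited signal (log axis, linear intensity) of the 37 measured genes on each array, ordered by functional group, with open symbols for 0 h, filled symbols for 24 h and 1 colour for each treatment. The vertical line marks the floor of 16.4, and for the 33 tested genes every open symbol lies to the right of every filled symbol.

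What was left of each transcript was taken as the residual, the 24 h signal as a percent of the 0 h signal of the same treatment. Over the 36 genes with 0 h signals above the floor, the median residual was 13.8% in the wild-type arrays, 17.8% in the doxycycline arrays and 15.1% in the mutant arrays, beside 98.7%, 102% and 99.8% over all probe sets tested. Where a 24 h signal lay at or under the floor, the residual is an upper bound. Such a 24 h signal was found for 10 of the 37 genes in the wild-type arrays, 2 in the doxycycline arrays and 5 in the mutant arrays. Each of these counts includes Cenpe, which lay under the floor at 0 h too, so it has no residual and is not among the 36. By group, median residuals ran from 9.88% (condensin and chromosome structure) to 25.3% (centromere and passenger complex) with wild-type p300. They ran from 12.0% (cytokinesis) to 25.4% (centromere and passenger complex) with doxycycline, and from 8.09% (cytokinesis) to 24.0% (spindle and centrosome factors) with mutant p300. That 24.0% rests on 4 genes. Spag5, at most 36.4%, and Stil, 56.0%, were under the limit for testing. The tested Tacc3 and Nusap1 had at most 9.0% and 11.6%. With wild-type p300, residuals within each group but the spindle kinesins spanned a wider range than the group medians did. Among checkpoint genes, for example, residuals with wild-type p300 ran from at most 7.25% for Bub1 to 78.1% for Bub3.

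**Figure D2:**
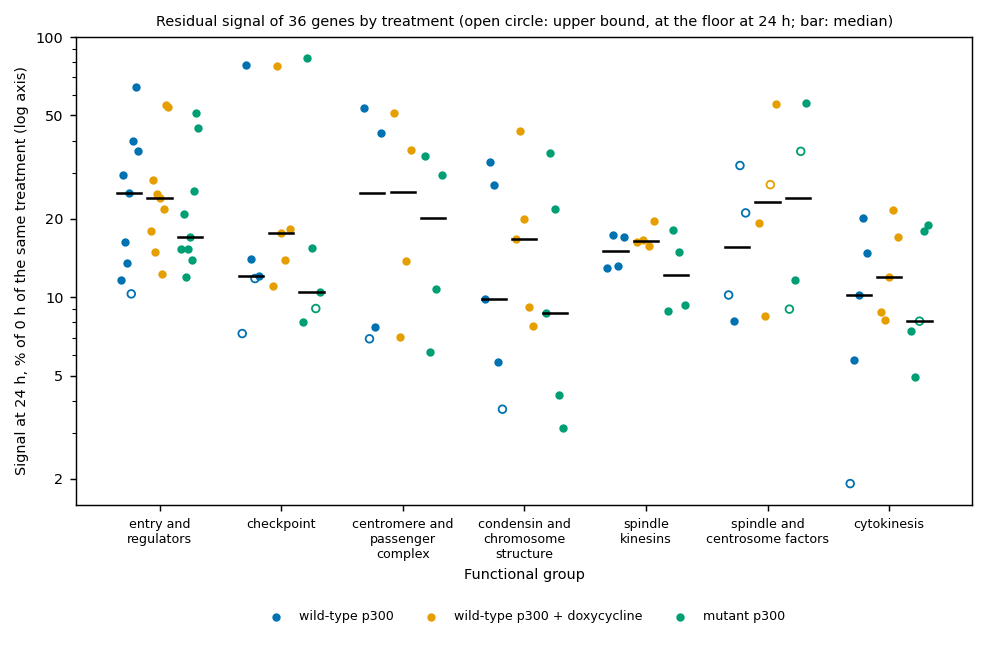
Residual signal at 24 h as a percent of 0 h (log axis) for 36 genes in 7 functional groups, with 1 point for each gene and treatment and a bar at the group median. Open circles are upper bounds from 24 h signals at or under the floor, the lowest being Kif20a with wild-type p300 at no more than 1.92%, and the highest points are Bub3 at 77.3% to 83.1%.

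The promoters of these genes are shown because the tested genes moved together. RefSeq promoter windows of assembly GRCm38.p6, from 250 bases before to 50 bases after the annotated start, were matched for 31 of the 37 measured genes and gave 35 promoters, since 4 genes had 2 starts. Cdc25c, Foxm1, Aurkb, Incenp, Smc4 and Kif20a had no entry. Below are the 250 bases before the start of 4 genes, 5′ to 3′ on the gene's strand. Capitals mark CCAAT (or its reverse, ATTGG) and the cell cycle homology letters TTTGAA (or TTCAAA) and TTTAAA. Cdk1, at chr10:69352913-69353162 on the minus strand, and Cdc20, at chr4:118437344-118437593 on the minus strand, stand for strongly fallen genes with both kinds of letters. Bub3, at chr7:131560120-131560369 on the plus strand, has both but was the gene that fell least. Birc5, at chr11:117848987-117849236 on the plus strand, fell strongly and has no CCAAT in the window.
Cdk1: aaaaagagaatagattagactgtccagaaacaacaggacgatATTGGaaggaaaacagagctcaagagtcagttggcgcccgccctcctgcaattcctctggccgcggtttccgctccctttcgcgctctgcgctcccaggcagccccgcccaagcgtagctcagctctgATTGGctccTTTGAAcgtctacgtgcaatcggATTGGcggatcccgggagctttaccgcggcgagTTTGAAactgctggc
Cdc20: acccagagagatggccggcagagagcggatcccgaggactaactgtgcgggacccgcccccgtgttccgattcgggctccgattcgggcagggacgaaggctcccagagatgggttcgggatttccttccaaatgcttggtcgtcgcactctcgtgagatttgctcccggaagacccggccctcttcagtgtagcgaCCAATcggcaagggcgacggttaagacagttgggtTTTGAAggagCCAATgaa
Bub3: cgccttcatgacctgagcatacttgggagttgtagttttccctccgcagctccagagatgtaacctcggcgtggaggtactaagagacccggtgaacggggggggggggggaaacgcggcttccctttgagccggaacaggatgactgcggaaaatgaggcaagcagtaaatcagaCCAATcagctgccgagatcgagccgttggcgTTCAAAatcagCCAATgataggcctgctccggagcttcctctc
Birc5: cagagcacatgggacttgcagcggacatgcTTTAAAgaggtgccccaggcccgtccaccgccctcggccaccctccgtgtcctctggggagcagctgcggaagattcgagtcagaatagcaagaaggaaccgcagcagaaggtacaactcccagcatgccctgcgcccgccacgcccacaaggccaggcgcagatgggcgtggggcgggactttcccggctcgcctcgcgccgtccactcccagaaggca
In Cdk1 the letters ATTGG began at positions -208, -80 and -48 from the start (-1 being the base before it) and TTTGAA at -71 and -15. Cdc20 held CCAAT at -53 and -8 and TTTGAA at -18, and Bub3 held CCAAT at -74 and -32 and TTCAAA at -43 from the start shown, which are -198, -156 and -167 from its other start. Birc5 held only TTTAAA, at -220.

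Both strands were searched over the whole 300-base window. The 35 promoters include those of Cenpe, Ncaph, Spag5 and Stil, which were not tested. CCAAT was present in 28 of the 35, 80.0%, beside 37.4% of all 32851 promoters in the table. It was in 37.3% of the 5102 promoters of genes tested here and in 49.3% of 436 promoters of genes outside the list that fell. Either TTTGAA or TTTAAA was present in 28 of 35, again 80.0%, beside 27.6%, 19.0% and 24.5%. TTTGAA alone was in 23 (65.7%, beside 17.9%, 11.9% and 15.8%) and TTTAAA in 9 (25.7%, beside 13.2%, 8.58% and 11.0%). CCAAT together with either was found in 25 of 35, 71.4%, beside 10.7%, 7.70% and 14.2%, and at least 2 CCAAT in 20, 57.1%, beside 11.7%, 14.7% and 23.4%. The E2F letters TTTCCCGC and TTTGGCGC were in 0 of the 35, beside 1.07% and 0.514% of all promoters. Their shares were 2.12% and 1.0% for genes tested here and 3.9% and 1.83% for genes outside the list that fell. At shares this low, 0 of 35 says little, and other forms of E2F sites were not searched. The windows of both starts overlap for most of their length in Ect2, Prc1 and Bub3, so the 35 windows are not independent. None of these letters was found in Mad2l1, Ncaph, Nusap1 or Tacc3, whose residuals with wild-type p300 were 14.0%, 27.0%, 8.11% and at most 10.2%. These are matches of letters in a window and were not tested as sites.

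The genes of mitotic entry include the kinase Cdk1, its small partners Cks1b and Cks2, and Cdc25c, the phosphatase that activates it. Cdk1 had signals of 668.4, 660.0 and 774.6 at 0 h (in the order wild type, doxycycline, mutant, as in all signals below), and 77.6, 118.8 and 118.5 at 24 h. The wild-type array was the lowest of the 24 h arrays, and the others were alike. The log2 change was -2.76 ± 0.32 (mean and SD over 3 treatments, as in all changes below; limma adjusted p = 1.83e-05). Cks2 went from 756.4, 805.7 and 938.2 to 123.6, 119.9 and 112.8, a change of -2.81 ± 0.23 (adjusted p = 1.14e-05), and its 24 h arrays differed little. Cks1b kept more, 194.8, 198.2 and 166.7 at 24 h after 662.1, 700.0 and 799.2, a change of -1.95 ± 0.27 (adjusted p = 4.09e-05). Cdc25c went from 240.0, 273.1 and 299.3 to 32.7, 68.4 and 45.7, with the doxycycline array highest and the wild-type array lowest (-2.53 ± 0.47, adjusted p = 0.000154).

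Among the mitotic kinases, Aurka, which matures the centrosomes, lay at 159.7, 194.6 and 219.2 at 0 h and at 12.3, 23.9 and 30.5 at 24 h, where the wild-type array was under the floor (-3.05 ± 0.22, adjusted p = 0.000102). Plk1, the Polo-like kinase of mitosis, went from 396.8, 442.7 and 501.6 to 100.1, 106.2 and 85.1 (-2.20 ± 0.31, adjusted p = 5.12e-05). Nek2, a kinase of centrosome separation, was the gene whose wild-type array was highest at 24 h by the widest margin, with 90.0 against 57.3 with doxycycline and 72.8 with mutant p300, after 225.9, 262.6 and 283.4 at 0 h (-1.83 ± 0.45, adjusted p = 0.000561). Its difference between outcomes at 24 h had an adjusted p of 0.577. Foxm1, the transcription factor of late cell cycle genes, kept the highest residuals of this group in each treatment, at 64.1%, 54.8% and 50.9%. Its signals were 710.4, 805.4 and 822.3 at 0 h and 455.1, 441.3 and 418.3 at 24 h (-0.83 ± 0.17, adjusted p = 0.00117). Gtse1, a microtubule-binding protein of G2, was with Birc5 one of the pair of tested genes above the mean of the others with wild-type p300 at 0 h, with 239.8 against 166.1 and 172.7, and its 24 h signals of 87.3, 89.8 and 77.0 left residuals of 36.4%, 54.1% and 44.6% (-1.17 ± 0.29, adjusted p = 0.00273).

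Of the 5 checkpoint genes, 4 fell strongly and 1 kept most of its signal. Bub1, a kinetochore kinase of the checkpoint, went from 226.3, 251.9 and 281.4 to 3.1, 27.8 and 22.5, under the floor in the wild-type array only (-3.54 ± 0.32, adjusted p = 4.11e-05). Ttk, the kinase that starts checkpoint signalling, had 138.4, 126.2 and 181.2 at 0 h and 8.6, 17.6 and 5.6 at 24 h, under the floor with wild-type and with mutant p300 (-3.13 ± 0.32, adjusted p = 0.000267). Mad2l1, which binds and restrains Cdc20, went from 467.4, 501.9 and 473.8 to 65.6, 88.1 and 73.0 (-2.68 ± 0.16, adjusted p = 1.55e-05). Cdc20, the activator of the anaphase-promoting complex, went from 998.9, 1140.7 and 1232.1 to 120.5, 208.7 and 129.1, with the doxycycline array 1.73 times the wild-type array at 24 h (-2.92 ± 0.42, adjusted p = 2.05e-05). Bub3, the partner that brings Bub1 to kinetochores, kept 598.4, 595.9 and 666.9 of 766.0, 770.9 and 802.2 (-0.33 ± 0.06, adjusted p = 0.0368). That call was lost with spike-in scaling (adjusted p = 0.164), without the variance trend (0.102) and with the mean over its probe sets (0.525). It was also lost without any 1 of 5 arrays. Leaving out either array of a treatment gave the same log2 change (-0.32 wild type, -0.31 doxycycline, -0.36 mutant), so these fits are not 5 separate checks.

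At the centromere, the passenger complex kinase Aurkb and its partner Birc5, survivin, kept little, and the inner centromere protein Incenp and the centromeric histone Cenpa kept more. Aurkb had 236.9, 296.0 and 275.3 at 0 h and 15.9, 20.8 and 17.0 at 24 h, all near the floor (-3.90 ± 0.10, adjusted p = 2.43e-05). Birc5 went from 370.0, 346.9 and 360.3 to 28.3, 47.9 and 38.8, lowest in the wild-type array (-3.26 ± 0.43, adjusted p = 3.39e-05). Incenp went from 178.2, 223.5 and 217.0 to 76.4, 82.4 and 64.2, with residuals of 42.9%, 36.9% and 29.6% (-1.47 ± 0.27, adjusted p = 0.000914). Cenpa went from 149.7, 166.2 and 157.9 to 79.9, 85.0 and 55.3, lowest with mutant p300 (-1.13 ± 0.34, adjusted p = 0.00539). With the mutant 0 h array left out the call was lost, and with the mutant 24 h array left out it was kept. The log2 change was -0.94 in both fits, since each rests on the other treatments only, so the loss does not point to the 0 h array. The kinetochore motor Cenpe lay between 0.9 and 10.7, under the floor on all 6 arrays, so no change can be given.

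The condensin and chromosome structure genes held some of the lowest residuals. Top2a, the topoisomerase that untangles sister chromatids, went from 336.6, 397.9 and 436.2 to 19.0, 36.4 and 18.3 (-4.06 ± 0.57, adjusted p = 3.04e-05). Mki67, the proliferation antigen that coats mitotic chromosomes, went from 442.5, 573.5 and 606.6 to 6.8, 44.3 and 19.0, with residuals of 7.72% with doxycycline, 3.13% with mutant p300 and at most 3.71% with wild type (-4.48 ± 0.69, adjusted p = 2.47e-05). In both the doxycycline array was the highest at 24 h. The condensin ATPase subunits differed from each other. Smc2 went from 310.8, 402.1 and 438.9 to 30.7, 67.4 and 38.0 (-3.15 ± 0.50, adjusted p = 4.66e-05), whereas Smc4 kept 395.3, 584.9 and 438.9 of 1195.0, 1341.2 and 1217.6, residuals of 33.1%, 43.6% and 36.0% (-1.42 ± 0.20, adjusted p = 8.04e-05). Ncaph, another condensin subunit, was under the limit for testing and had 121.5, 95.7 and 146.6 at 0 h and 32.8, 19.1 and 31.9 at 24 h. With no limit its adjusted p was 0.0950.

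The 4 spindle kinesins had the narrowest range of residuals, 8.88% to 19.6% over genes and treatments. Kif11, the motor that pushes the spindle poles apart, went from 171.6, 216.6 and 227.1 to 29.8, 36.0 and 41.4 (-2.52 ± 0.07, adjusted p = 9.74e-05). Kif22, a chromosome-arm motor, went from 828.9, 1001.7 and 869.1 to 109.6, 158.4 and 129.9 (-2.77 ± 0.13, adjusted p = 6.49e-06). Their changes were near equal in the 3 treatments. Kif4, also a chromosome-arm motor, went from 209.8, 241.6 and 269.1 to 35.6, 47.4 and 25.2 (-2.78 ± 0.57, adjusted p = 0.000215), and Kif2c, a microtubule depolymerase, from 352.5, 392.0 and 373.7 to 45.8, 64.0 and 33.2 (-3.02 ± 0.44, adjusted p = 4.11e-05). Both were lowest with mutant p300 and highest with doxycycline at 24 h.

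Among spindle and centrosome factors, Tacc3, which stabilises microtubules at the spindle, went from 161.3, 149.9 and 182.3 to 13.9, 29.0 and 14.8, with only the doxycycline array above the floor (-3.05 ± 0.59, adjusted p = 0.000354). Nusap1, a microtubule-bundling protein, went from 355.1, 551.8 and 430.5 to 28.8, 46.8 and 49.9 (-3.43 ± 0.28, adjusted p = 1.55e-05). The remaining genes were dim. Spag5, astrin, had 51.1, 60.6 and 45.0 at 0 h and 3.1, 2.7 and 5.5 at 24 h, under the floor on every 24 h array, with an adjusted p of 0.0901 when tested without the limit. Stil, a centriole duplication factor, had 77.9, 80.6 and 74.7 at 0 h and 6.8, 44.5 and 41.8 at 24 h. Only its wild-type array was under the floor at 24 h, with a residual of at most 21.1% against 55.2% and 56.0%. Tested without the limit, its time change had an adjusted p of 0.328 and its difference between outcomes at 24 h an adjusted p of 0.272.

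By the brightest probe set of each gene, the cytokinesis genes included the largest fall with wild-type p300. Kif20a, the kinesin that carries the passenger complex to the central spindle, had 852.4, 855.7 and 935.4 at 0 h and 11.6, 74.9 and 69.2 at 24 h (-4.32 ± 1.20, adjusted p = 0.000165). Anln, anillin of the contractile ring, went from 870.6, 949.2 and 1010.4 to 49.8, 77.7 and 49.8 (-4.03 ± 0.38, adjusted p = 6.49e-06). Kif20a was thus under the floor at 24 h with wild-type p300 only, and Anln was equal with wild-type and mutant p300. The second Kif20a probe set kept 6.8% with wild-type p300, above the 5.72% of Anln, the 5.64% of Top2a and the at most 3.71% of Mki67. Ect2, which activates RhoA at the division plane, went from 170.1, 179.9 and 202.8 to 17.3, 21.6 and 13.5, under the floor with mutant p300 (-3.33 ± 0.29, adjusted p = 0.000109). Racgap1, a subunit of the centralspindlin complex, kept 110.8, 150.9 and 124.7 of 551.3, 699.1 and 693.6 (-2.33 ± 0.13, adjusted p = 1.55e-05). Prc1, which bundles the central spindle, kept 67.9, 96.0 and 106.2 of 458.3, 560.6 and 561.7 (-2.57 ± 0.18, adjusted p = 1.55e-05).

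The second comparison set the wild-type array, the survival outcome, against the doxycycline and mutant arrays at 24 h. Kif20a was the only 1 of the 33 genes called, lower with wild-type p300 by 2.13 on the log2 scale (limma adjusted p = 0.00742), in a test that called 0.0483% of probe sets lower, 3 of 6212, and 45 higher. With the wild-type signal at the floor, doxycycline was at least 4.57-fold and mutant p300 at least 4.22-fold higher. The second Kif20a probe set read 20.6 against 43.1 and 32.9, in the same order, with a log2 difference of -0.87 and an adjusted p of 0.343. The Kif20a call was lost with a floor of 32 (log2 -1.17, adjusted p = 0.0523) and with the mean over both probe sets (log2 -1.50, adjusted p = 0.0698). Beside it, the actin 3′ to 5′ signal ratio, a measure of RNA integrity, was 1.33 with wild-type p300 and 1.45 and 1.49 with doxycycline and mutant p300 at 24 h. The Gapdh 3′ to 5′ ratio was 0.875, 0.859 and 0.905 in the same order, with wild type between the others. The summed muscle marker signal was 3970, 6187 and 4935, again in that order. The part of these measures in the result was not tested.

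Over the 33 genes, the median log2 difference between wild type and the mean of the others at 24 h was -0.32, beside -0.05 over all probe sets tested. The sign was negative for 24 of them (56.1% of probe sets tested), and 5 were lower at an unadjusted p under 0.05 (5.57%). Kif20a was also the only tested gene at least 2-fold under both other arrays, as were 0.386% of probe sets tested, and Stil, which was not tested, was the second of the 37. The wild-type array was the lowest at 24 h for 17 of the 33, beside 39.6% of all probe sets tested and 40.4% of those that fell. The gap to wild type was wider for doxycycline than for mutant p300. Doxycycline was above wild type for 29 of the 33 (57.4% of probe sets tested) with a median log2 difference of 0.48, and mutant p300 was above wild type for 18 (53.7%), equal for Tacc3 and Ttk at the floor and for Anln, with a median of 0.10. Over all probe sets tested these medians were 0.06 and 0.04. Scaling to the spike-in controls moves all probe sets of an array alike, except where signals lie at or near the floor, which was applied afterwards. With it the median difference between wild type and the others was 0.01, beside 0.32 over all probe sets tested, and relative to all probe sets the genes stood at -0.31, beside -0.28 as deposited. Kif20a was called under that scaling too (log2 -1.95, adjusted p = 0.000213). Without the mutant 24 h array, 5 genes were called lower with wild type, Cdc25c (log2 -1.06, adjusted p = 0.0465), Cdc20 (-0.79, 0.0160), Smc2 (-1.14, 0.0204), Mki67 (-1.43, 0.00352) and Kif20a (-2.19, 8.23e-06), in a fit that called 1.72% of probe sets lower and took its spread from a single residual degree of freedom and the variance trend.

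**Figure D3:**
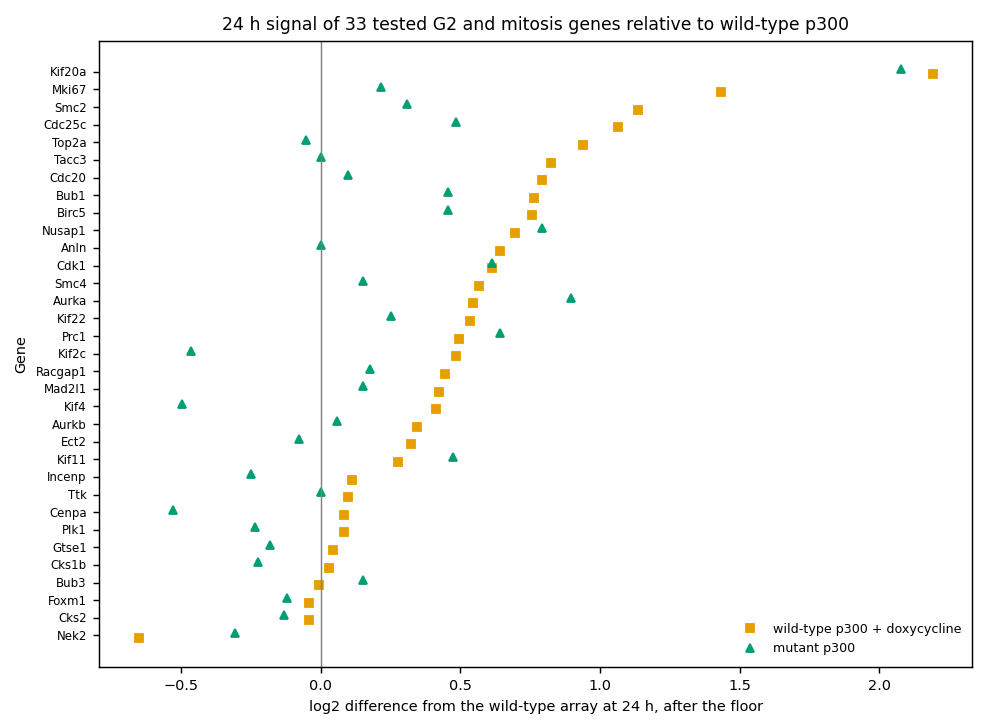
Log2 signal of the doxycycline and mutant arrays minus the wild-type array (after the floor) for the 33 tested genes at 24 h, ordered by the doxycycline value. There were 29 doxycycline values and 18 mutant values above 0, and Kif20a lies farthest from 0 in both.

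The doxycycline array was the highest of the 24 h arrays for 25 of the 33 genes, an order counted after the values had been seen, beside 38.1% of probe sets tested and 29.5% of those that fell. It was above the mutant array for 27 of the 33, beside 51.7%, with a median log2 difference of 0.29 (0.01 over all probe sets tested). These are orders of single arrays with no test. The largest ratios of doxycycline to mutant p300 at 24 h were those of Mki67 (2.33), Top2a (1.99), Kif2c (1.93) and Kif4 (1.88), and the lowest those of Aurka (0.784) and Nek2 (0.787). With scaling to the spike-in controls, which moved the median of all probe sets tested at 24 h by 0.18 (wild type), -0.13 (doxycycline) and -0.23 (mutant), the doxycycline array was highest for 20 of the 33, beside 19.5% of probe sets tested. The wild-type array was then lowest for 8, beside 7.52%.

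At 0 h, the wild-type array was already the lowest for 28 of the 33 genes, beside 37.0% of probe sets tested and 49.2% of those that fell. Doxycycline was above wild type for 28 (53.0% of probe sets tested) and mutant p300 for 31 (51.9%), with median log2 differences of 0.17 and 0.28. By limma 0 genes were called between outcomes at 0 h, and 0 had an unadjusted p under 0.05. Over all probe sets tested 0 were called, with 101 lower and 161 higher at an unadjusted p under 0.05. Read against the 0 h signal of the same treatment, the doxycycline residual was the highest for 21 of the 33 genes (36.0% of probe sets tested, 32.6% of those that fell). The mutant residual was the lowest for 18 (30.9% of probe sets tested), and the wild-type residual was the lowest for 12 (38.3%). With spike-in scaling the median residuals were 15.4%, 16% and 11.7% for wild type, doxycycline and mutant, beside 110%, 91.7% and 77.5% over all probe sets tested. Above the floor, that scaling moves all probe sets of an array alike. The wild-type array was then the lowest at 0 h for 26 of the 33 genes.

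The test of whether the 24 h change itself differed between outcomes called 0 of the 33 genes by limma. The smallest adjusted p was 0.561, for Kif20a, the only 1 of the 33 with an unadjusted p under 0.05. Over all probe sets tested, 0 were called, with 92 lower and 105 higher at an unadjusted p under 0.05. Kif20a was called without the doxycycline 24 h array (log2 -2.01, adjusted p = 0.00726) and without the mutant 24 h array (log2 -2.12, adjusted p = 0.00229). Those fits called 6 and 43 probe sets in all, 0.0322% and 0.0966% of those tested as lower. Each had 1 array per outcome at 24 h and a single residual degree of freedom, from the 0 h arrays.

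For 11 genes the array held 13 further probe sets, and they did not always read alike. Mki67 was the only gene with a further tested probe set that did not fall. That probe set lay between 49.6 and 88.3 on all 6 arrays, with a log2 change of 0.29 ± 0.49 (adjusted p = 0.482). The further Plk1 probe sets changed by -1.01 ± 0.44 (adjusted p = 0.00633) and -3.29 ± 1.13 (adjusted p = 0.000889), on either side of the -2.20 of the brightest. That of Kif20a changed by -3.49 ± 0.46 (adjusted p = 3.39e-05), against -4.32 for the brightest, with residuals of 6.8%, 12.7% and 8.17%. The dimmer Foxm1 probe set, not tested, went from 113.9, 135.2 and 107.4 to 8.2, 10.9 and 8.4, all under the floor at 24 h, so that residuals of at most 14.4%, 12.1% and 15.3% stand beside the 64.1%, 54.8% and 50.9% of the brightest one. The further Incenp probe set changed by -0.42 ± 0.18 and that of Cdc25c by -2.99 ± 0.20, both untested. Also untested, the further Bub1 probe sets changed by -1.03 ± 0.28 and -0.10 ± 0.17, against -3.54 for the brightest. Both lay under the floor on every 24 h array. That of Nusap1 changed by -0.72 ± 0.88, against -3.43, and rose with wild-type p300 from 37.2 to 45.5. That of Ncaph changed by -1.055 ± 0.441, against -2.138.

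**Figure D4:**
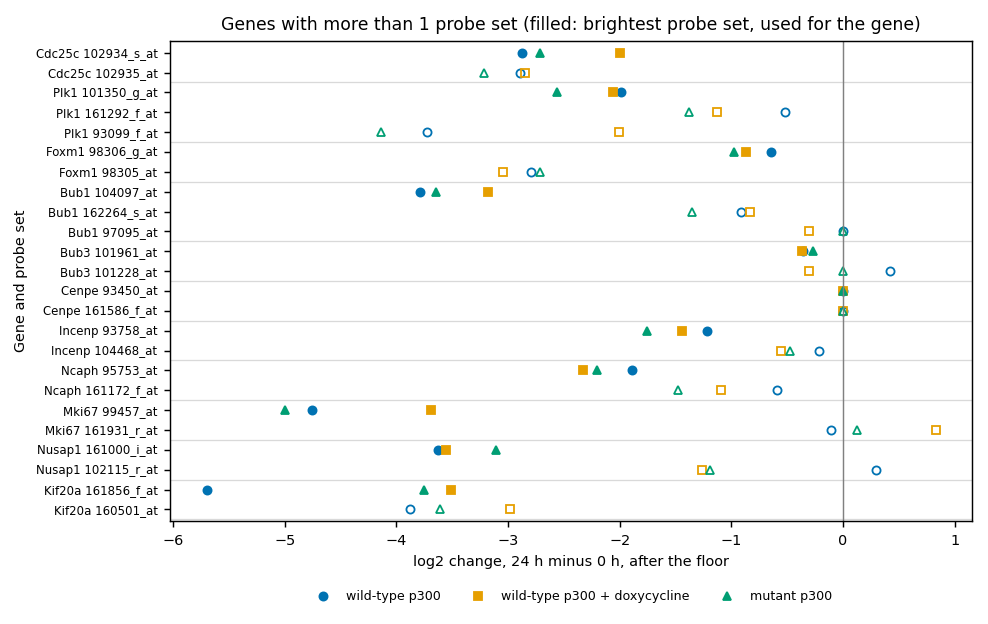
Log2 change from 0 h to 24 h (after the floor) for each probe set of the 11 genes with more than 1, by treatment, with filled symbols for the brightest probe set and open symbols for the others. The further probe sets of Mki67, Bub3, Cenpe and Incenp lie within 1 of 0. Those of Foxm1, Plk1, Bub1, Mki67, Nusap1, Ncaph and Incenp differ from the brightest by more than 1 on the log2 scale in their mean.

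Of 82 other genes of G2 and mitosis, 49 had a probe set and 39 were tested. Of these 25 fell, 1 rose and 13 were not called, beside 559 lower (9.00%) and 450 higher of all 6212 probe sets tested. The median log2 change of the 39 was -0.68, beside 0.005 over all probe sets tested. The largest falls were those of Hmgb2, a chromatin protein (-2.99 ± 0.11), the mitotic cyclin Ccnb2 (-2.80 ± 0.20), the centralspindlin kinesin Kif23 (-2.62 ± 0.69), Ckap2 (-2.54 ± 0.20), the microtubule destabiliser Stmn1 (-2.51 ± 0.38), the importin Kpna2 (-2.26 ± 0.11), the centriole kinase Plk4 (-2.03 ± 0.59) and cyclin Ccna2 (-1.93 ± 0.42). Numa1, a spindle pole protein that is also part of the interphase nucleus, rose by 0.46 ± 0.27 (adjusted p = 0.0300). The wild-type array was the lowest at 24 h for 18 of the 39, beside 39.6% of all probe sets tested. Between outcomes at 24 h, 0 of the 39 were called, beside 3 lower and 45 higher of all 6212 probe sets tested.

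The genes whose signals over the 6 arrays were most like the mean profile of the 33, by Pearson correlation as a description, were Ccnb2 (0.998), Hmgb2 (0.998), Usp1 (0.998), Mcm7 (0.996), Pold1 (0.996), Anp32b (0.995), D17H6S56E-5 (0.995), Srsf3 (0.994), Ckap2 (0.994) and Mxd3 (0.993). The median correlation of the 33 genes with that profile, of which each is a part, was 0.994. All these values rest mainly on the difference between the 0 h and the 24 h arrays, which all of these genes share.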

How the data were processed

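Total RNA of infected C2AS12 cells was labelled with biotin and measured on 6 arrays, 1 for each of 3 treatments at 0 h and 24 h. The deposited values are linear intensity per probe set, made by the authors with MAS5, per the submitters' processing notes. Neither the version of MAS5 nor its settings are given in the sources used here. The table had 12488 probe sets. The 66 controls were left out, and signals under 16.4 (the 25th percentile) were set to it before log2 was taken. The 6212 probe sets with a mean signal of at least 75.2 (the median) were tested.

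Tests were 2-sided and came from limma 3.58.1 (lmFit, then eBayes with a variance trend) under R 4.3.3, with Benjamini-Hochberg adjustment over all probe sets tested. The threshold was an adjusted p under 0.05. The time effect had treatment as a block. The outcome contrasts used 1 mean for each outcome and time, so the lone wild-type array of a time was assumed to vary like the others. Doxycycline and mutant p300 are different treatments pooled there as the death outcome. The spread in these contrasts is therefore the difference between those treatments at each time. The labels name no separate cultures, so p-values reflect only how these samples spread. That spread may be technical or a difference between treatments, and treatment, infection and culture cannot be told apart. Comparisons of time and of outcome share arrays.

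Every listed gene was accounted for, each by its brightest single-symbol probe set. The 8 other genes of G2 and mitosis with the largest called changes were named by rule, and those most like the profile were the top 10 by correlation. Numa1 and the further probe sets singled out were chosen after their values were seen. The genes, groups and lists were chosen with earlier results of these data known. Gene symbols came from the platform's annotation, updated through a RefSeq table of GRCm38.p6. Alternatives were another floor, an offset in place of the floor, no limit on signal, quantile and spike-in scaling, the mean over probe sets, no variance trend and each array left out. The models were also run on simulated data with independent noise, a like spread on every array and no floor. Values at the floor and a lone array of unlike spread were thus not checked. Python 3.11.15, pandas 2.3.3 and matplotlib 3.10.9 were used for counts and plots.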

Additional observations from a re-analysis of the deposited data

How the results depend on the processing

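Of the 33 genes that fell over 24 h, 31 to 33 were called under each scaling, floor, offset, probe set rule, variance model and left-out array, and 27 of 27 with plain _at probe sets only (added after the values were seen). The plain set leaves out the Kif20a probe set that was called between outcomes. With no limit on signal 0 were called, and the cause was not tested. The count of genes called between outcomes at 24 h, 1, became 0 with a floor of 32 and 0 with the mean over all probe sets of a gene, and was 1 to 5 with 1 array left out, 5 without the mutant 24 h array. The count with a time change that differed between outcomes, 0, was 0 to 1 with 1 array left out, Kif20a without the doxycycline or the mutant 24 h array. The wild-type array was lowest at 24 h for 17 genes, for 8 with spike-in scaling, for 13 with a floor of 32, and for 18 to 29 with 1 of the other 24 h arrays left out (29 without the mutant array, where only the doxycycline array remains beside it). The doxycycline array was highest for 25 genes and for 19 to 29 under the alternatives. Median residuals ran from 13.4% to 17.8% with wild-type p300, 16% to 21.2% with doxycycline and 11.7% to 17.6% with mutant p300. With spike-in scaling, which moves all probe sets of an array alike above the floor, they were 15.4%, 16% and 11.7%. Over all probe sets tested they were then 110%, 91.7% and 77.5%. The time change of each tested gene and the Kif20a difference kept their direction under all of these alternatives that gave a value. The median difference between wild type and the others at 24 h, relative to that of all probe sets tested, was -0.28, and -0.31 with spike-in and -0.32 with quantile scaling. Fits between outcomes without the wild-type 24 h array, the test of the change without either wild-type array, and residuals without an array of their own treatment could not be made. The time test already paired the arrays of a treatment, and the labels give no replicate numbers by which to pair arrays otherwise. Leaving out either array of a treatment therefore gave the same time changes, from the other treatments only, so the left-out arrays are not 6 separate checks of the time test. The floor of 16.4 limits how low a residual can be read in dim genes.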
